A study of Homo sapiens with 12 samples.

Results

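The genes described here are the 7 human sirtuins, SIRT1 to SIRT7, together with SOD2 and IDH2, 2 mitochondrial enzymes that SIRT3 deacetylates. They were taken by gene name from a table of 36866 genes, and all 9 were found in it. Poly(A) mRNA was sequenced from 12 libraries of 2 acute myeloid leukemia cell lines, THP-1 and U-937, with 3 libraries in each of 4 groups. THP-1 and U-937 are human lines with monocytic features, and the labels give both a complex karyotype. Cells of each line received honokiol or the solvent DMSO at 0.1% for 24 h. The labels list honokiol at 20 and 35 µM without naming the line that received each dose, and no untreated cells without DMSO are among the samples. A difference between the lines in their response to honokiol cannot be told apart from a difference in dose. The labels do not say that the 3 libraries of a group came from separate cultures, so the p-values measure only the spread between these libraries.

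Sirtuins remove acetyl or other acyl groups from lysine residues and consume NAD+ in each reaction. SIRT1, SIRT6 and SIRT7 are mainly nuclear, SIRT2 is mainly cytosolic, and SIRT3, SIRT4 and SIRT5 lie in the mitochondrial matrix. SIRT3 is the main deacetylase of the matrix. It activates SOD2, which converts superoxide to hydrogen peroxide, and IDH2, which makes NADPH from isocitrate. Honokiol, a biphenol from magnolia bark, has been described as an activator of SIRT3. The activity, acetylation and amount of these proteins were not measured here, and the values below are levels of mRNA.

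Each library had between 57406966 and 75065752 estimated counts, and a fragment was worth about 4 counts. The share of mitochondrially encoded genes was 13.7% in THP-1 DMSO replicate 1 and 12.6% in U-937 DMSO replicate 1, against 5.61% to 7.55% in the other 10 libraries. Of 16 monocytic and myeloid markers, 16 reached a mean of 0.5 FPKM (fragments scaled to exon length and library size) in both THP-1 groups and 15 in both U-937 groups, where myeloperoxidase (MPO) did not. The summed level of these markers was 4040 to 5873 FPKM in the THP-1 DMSO libraries and 1477 to 1786 FPKM in the U-937 DMSO libraries. Of 13 measured markers of other cell types, 2 or 3 reached 0.5 FPKM in a group, and the summed level of the 13 was 1.91 to 3.98 FPKM in all 12 libraries.

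The sirtuin loci lie close to other genes, and the strand-specificity of the libraries is not given in the sources used here. Short stretches of sequence from RefSeq (GRCh38.p14) are shown for SIRT3 and SIRT2, whose RefSeq starts have 44 and 47 bases between them and the start of a gene on the other strand, and around matches of an NRF1 motif or an E-box for SIRT5, SIRT6 and SIRT1. RefSeq and the deposited table place these starts differently: in the table's coordinates the starts of SIRT3 and PSMD13 are 107 bases apart and SIRT2 and NFKBIB overlap by 163 bases. The stretches are written in the direction of the sirtuin gene, with motif letters in capitals.
SIRT3, the whole stretch between its RefSeq start and that of PSMD13, chr11:236932-236975, minus strand: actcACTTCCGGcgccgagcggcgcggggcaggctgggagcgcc
SIRT2, the middle of the stretch between its RefSeq start and that of NFKBIB, chr19:38899627-38899656, minus strand: cggccactcccatttctggtgccgtcacgg
SIRT5, around a match in its upstream window, chr6:13574451-13574480, plus strand: ggtccgcggtGCGCATGCGCggcccggcct
SIRT6, around a match in its upstream window, chr19:4182655-4182684, minus strand: tcagcaagagGCGCATGCGCcttgccgtgg
SIRT1, around a match in its upstream window, chr10:67884600-67884629, plus strand: gatggggcgggtCACGTGatggggtttaaa

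Windows of 300 bases, from 250 bases before to 50 bases after a start, were held for 8 of the 9 genes (14 windows), and SIRT7 was the gene without one. The ETS-family motif ACTTCCGG was found in the SIRT3 window, next to the start of PSMD13, and in 4.14% of the 35116 windows of all genes, with both strands searched. The NRF1 motif GCGCATGCG, which overlaps its own reverse complement in these sequences, was found in windows of SIRT5 and SIRT6 and in 1.92% of all windows. NRF1 is a transcription factor for many nuclear genes of mitochondrial proteins. The E-box CACGTG was found for SIRT1 and in 7.26% of all windows. The SP/KLF motif GGGGCGGGG was found for SIRT5, SIRT6 and SOD2 and in 15.7% of all windows, and the TATA motif TATAAA for SIRT4 and in 11.5%. These matches describe the letters of the windows, and binding was not measured.

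The 9 genes covered a wide range of levels, from IDH2 at about 80 FPKM to SIRT4 below 1 FPKM. In THP-1 cells with DMSO, IDH2 had the highest level (84.0 ± 8.31 FPKM, SD, n = 3), followed by SIRT6 (6.74 ± 0.764), SIRT2 (5.26 ± 0.199), SIRT7 (5.04 ± 1.61) and SIRT1 (3.88 ± 1.26). SIRT3 (0.87 to 1.24 FPKM), SIRT5 (0.74 to 1.19), SOD2 (0.777 ± 0.106) and SIRT4 (0.273 ± 0.0987) were lower. The ranges of neighbours in this order overlapped from SIRT2 to SIRT1 and from SIRT3 to SOD2, so the order within these runs is not resolved. In U-937 cells with DMSO the order was IDH2 (76.9 ± 15.4 FPKM), SIRT2 (12.1 ± 1.16), SIRT6 (12.1 ± 0.191), SIRT7 (5.00 ± 0.825), SIRT1 (4.51 ± 0.788), SOD2 (3.02 ± 1.49), SIRT3 (1.61 ± 0.590), SIRT5 (0.963 ± 0.240) and SIRT4 (0.277 ± 0.0814). There the ranges of SIRT2 and SIRT6 overlapped, as did those of each pair of neighbours from SIRT7 down to SIRT5. SIRT3 was thus among the sirtuins of lower mRNA level in both lines, next to the other mitochondrial sirtuins, SIRT4 and SIRT5.

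The places of SIRT6, SIRT7 and SOD2 in this order depended on the length used. In THP-1 cells with DMSO, SIRT6 ranked 2 by FPKM and 5 or 4 per base of the principal transcripts in GENCODE 29. SIRT7 ranked 4 by FPKM and 2 per base there, so SIRT6 above SIRT2 and SIRT7 holds for FPKM only. The count of SOD2 divided by its FPKM implied a length of 21433 bases, whereas the 2 principal transcripts of SOD2 in GENCODE 29 have 990 and 14266 bases. Per base of the shorter transcript, SOD2 ranked 4 of 9 in THP-1 and 2 of 9 in U-937 cells with DMSO, in place of 8 and 6 by FPKM. Per base of the longer transcript, SOD2 ranked 8 and 6, as by FPKM. With CPM, which is scaled to library size and not divided by length, it ranked 6 for THP-1 and 3 for U-937 cells. Comparisons of SOD2 between libraries do not depend on this length.

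**Figure D1:**
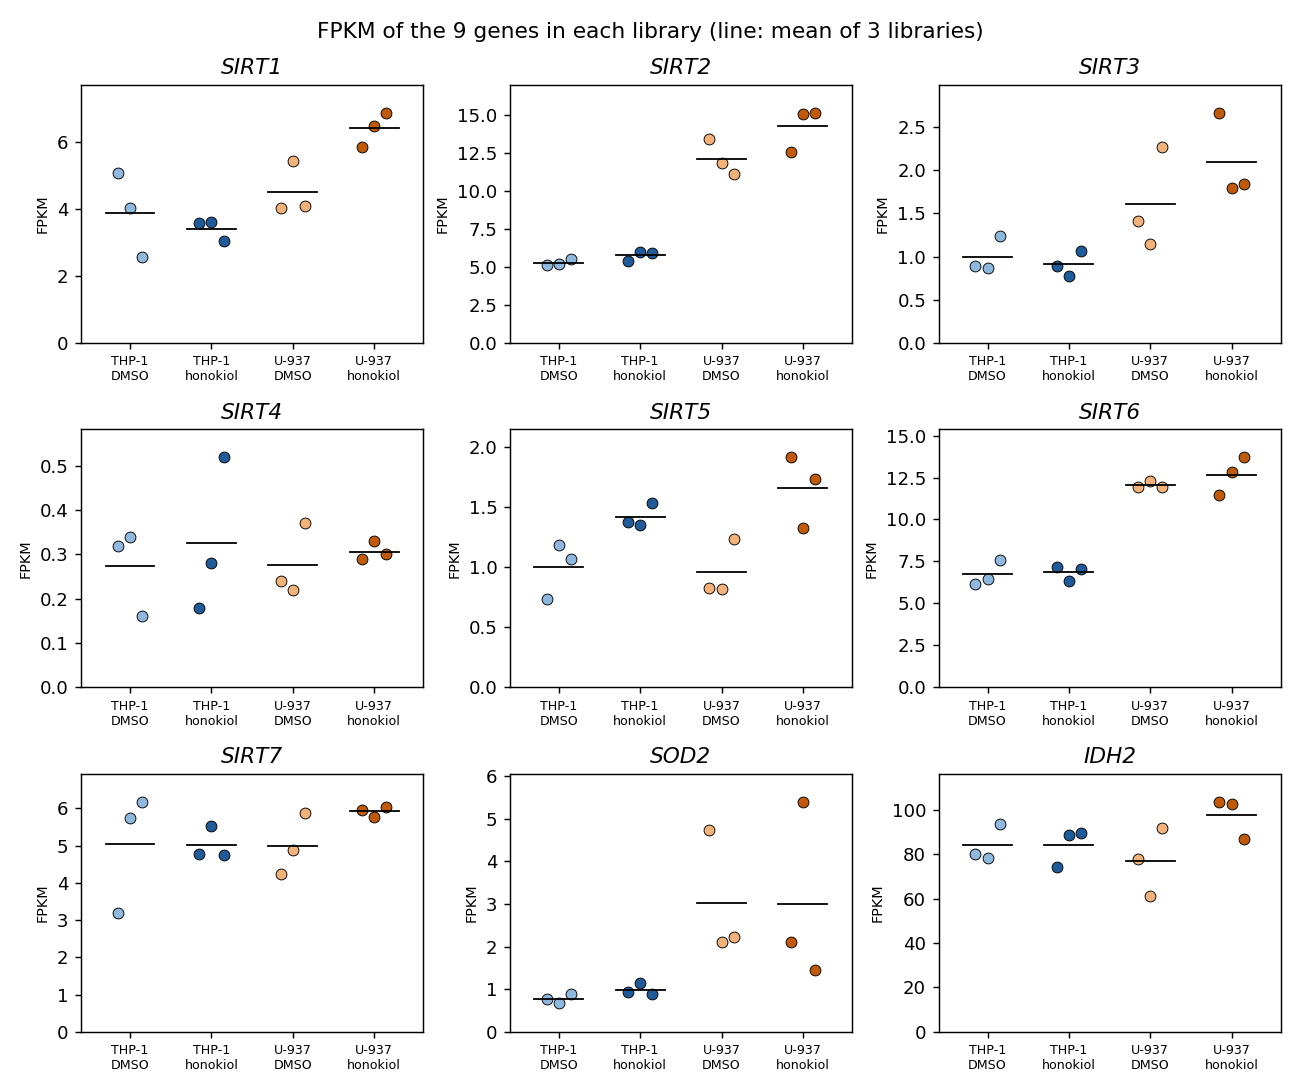
FPKM of SIRT1 to SIRT7, SOD2 and IDH2 (one panel each, linear axes from 0) in the 12 libraries, with 1 point per library and a line at the mean of the 3 libraries of a group. The points of SIRT2 and SIRT6 are higher in both U-937 groups than in both THP-1 groups, and SOD2 has 1 high library in each U-937 group.

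The first comparison asks whether the mRNA of SIRT3, the sirtuin that honokiol is described to activate, or of its relatives changed with honokiol. None of the 8 genes that could be tested changed past the threshold in either line. A gene was tested where its FPKM was at least 0.5 in at least 3 libraries of the comparison, which left out SIRT4. The test was edgeR's quasi-likelihood test on the counts, with Benjamini-Hochberg adjustment over all genes tested and an adjusted p under 0.05 as the threshold. Positive log2 fold changes mean higher with honokiol.

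SIRT3 was measured in THP-1 cells at 0.89, 0.87 and 1.24 FPKM with DMSO and at 0.89, 0.77 and 1.07 FPKM with honokiol. The 2 groups overlapped almost completely. The fitted difference was -0.18 on the log2 scale (95% interval -0.74 to 0.37), with an adjusted p of 0.762 by edgeR. SIRT3 in U-937 cells was at 1.41, 1.14 and 2.27 FPKM with DMSO and at 2.67, 1.79 and 1.84 FPKM with honokiol. Here 1 DMSO library lay above 2 of the honokiol libraries. The fitted difference was 0.30 on the log2 scale (95% interval -0.36 to 0.97), with an adjusted p of 0.639 by the same edgeR test. The intervals include no change and, at their upper ends, folds of 1.29 for THP-1 and 1.96 for U-937 cells. Each library held between 359 and 1070 estimated counts of SIRT3.

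The SIRT3 substrate IDH2 was at 80.05, 78.35 and 93.52 FPKM with DMSO and at 74.27, 88.54 and 89.54 FPKM with honokiol in THP-1 cells. In U-937 cells it was at 77.66, 61.11 and 91.83 FPKM with DMSO and at 103.75, 102.64 and 86.88 FPKM with honokiol. The groups overlapped in both lines. IDH2 had a log2 fold change of -0.05 (95% interval -0.36 to 0.26) for THP-1 and 0.26 (-0.13 to 0.65) for U-937 cells, with adjusted p of 0.885 and 0.483 by edgeR.

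SOD2, the other substrate, was at 0.76, 0.68 and 0.89 FPKM with DMSO and at 0.93, 1.14 and 0.88 FPKM with honokiol in THP-1 cells. Its log2 fold change there was 0.28 (95% interval -0.14 to 0.69, edgeR adjusted p = 0.527). In U-937 cells SOD2 was at 4.73, 2.10 and 2.22 FPKM with DMSO and at 2.11, 5.40 and 1.45 FPKM with honokiol. One library of each U-937 group, DMSO replicate 1 and honokiol replicate 2, was thus more than 2 times as high as the others of its group. In U-937 its log2 fold change was -0.14 with a wide interval (95% interval -1.32 to 1.04, edgeR adjusted p = 0.920). Leaving out 1 library at a time moved it between -0.86 and 0.39, so its direction rested on single libraries: it was 0.39 without DMSO replicate 1 and -0.86 without honokiol replicate 2.

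SIRT5, a mitochondrial sirtuin that removes succinyl, malonyl and glutaryl groups, had the largest log2 fold change among these genes in both lines. In THP-1 cells it was at 0.74, 1.19 and 1.07 FPKM with DMSO and at 1.38, 1.35 and 1.54 FPKM with honokiol. In U-937 cells it was at 0.83, 0.82 and 1.24 FPKM with DMSO and at 1.92, 1.33 and 1.74 FPKM with honokiol. No DMSO library reached a honokiol library in either line. Its log2 fold change was 0.45 (95% interval -0.03 to 0.94, edgeR adjusted p = 0.403) for THP-1 cells and 0.70 (0.14 to 1.26, edgeR adjusted p = 0.220) for U-937 cells. Neither passed the threshold.

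SIRT1, a nuclear deacetylase of histones, p53 and FOXO factors, was at 5.07, 4.02 and 2.56 FPKM with DMSO and at 3.56, 3.61 and 3.05 FPKM with honokiol in THP-1 cells. In U-937 cells it was at 4.03, 5.42 and 4.08 FPKM with DMSO and at 5.85, 6.48 and 6.87 FPKM with honokiol. By FPKM the groups overlapped in THP-1 and did not overlap in U-937. SIRT1 had a log2 fold change of -0.26 (95% interval -0.89 to 0.37, edgeR adjusted p = 0.706) for THP-1 and 0.42 (0.02 to 0.81, edgeR adjusted p = 0.280) for U-937 cells. Without THP-1 DMSO replicate 1, its highest library in that line, the THP-1 value was 0.043.

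The cytosolic SIRT2, a tubulin deacetylase, and the nuclear SIRT6 and SIRT7 had log2 fold changes between -0.05 and 0.16. SIRT2 had a log2 fold change of 0.07 (95% interval -0.22 to 0.36) for THP-1 and 0.14 (-0.20 to 0.49) for U-937 cells. SIRT6, which acts on chromatin at telomeres and DNA breaks, had -0.03 (-0.37 to 0.31) for THP-1 and -0.02 (-0.34 to 0.30) for U-937. SIRT7, a nucleolar deacetylase of histone H3, had -0.05 (-0.55 to 0.45) for THP-1 and 0.16 (-0.18 to 0.50) for U-937, and its THP-1 value was -0.26 without DMSO replicate 1. The adjusted p of these 3 genes lay between 0.623 and 0.962 by edgeR. SIRT4, with 14 to 50 counts per library, was at 0.16 to 0.52 FPKM in all 12 libraries and was not tested.

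**Figure D2:**
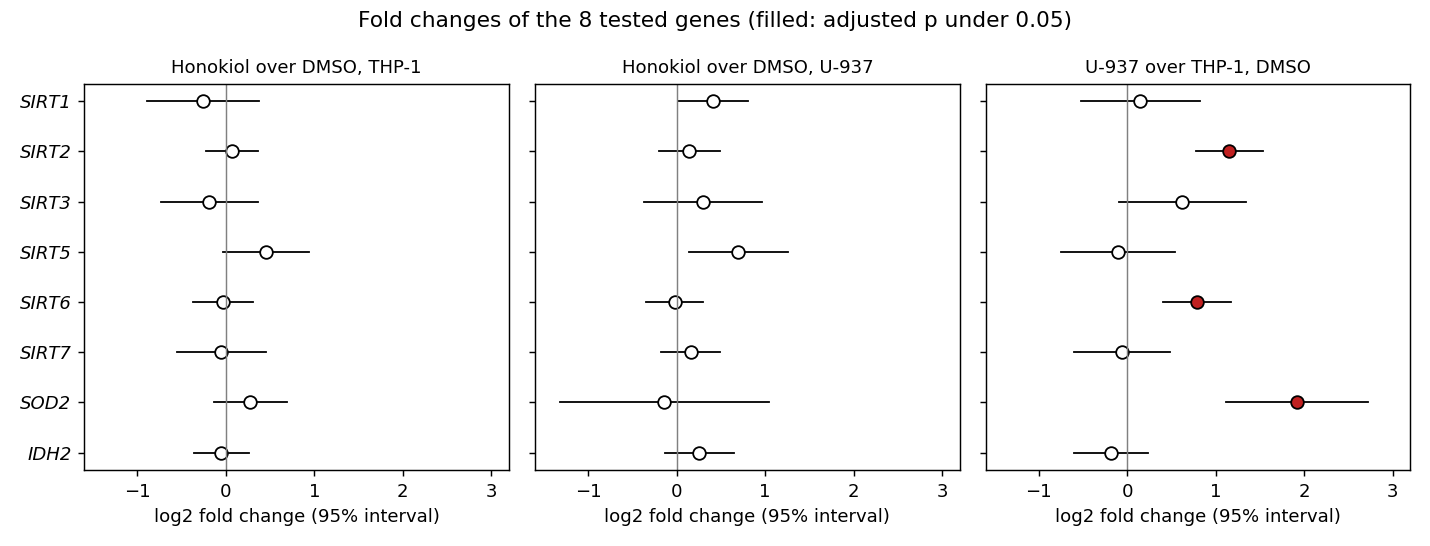
Log2 fold changes (x axis) of the 8 tested genes with their 95% intervals, for honokiol over DMSO in THP-1, honokiol over DMSO in U-937 and U-937 over THP-1 with DMSO; filled points have an adjusted p under 0.05. No point is filled in the 2 honokiol panels, and SIRT2, SIRT6 and SOD2 are filled in the comparison of the lines.

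By edgeR's adjusted p, 0 of 8 genes were called with honokiol in either line, where 0.0411% of all tested genes were called for THP-1 and 0.0947% for U-937. A differentially expressed gene (DEG) needed an absolute log2 fold change over 1 as well, and the share of DEGs was again 0.0411% and 0.0947%. DESeq2 and limma-trend also called 0 of the 8 in each line. In simulated counts, these edgeR tests detected 30 of 100 genes with an absolute log2 change of 1 for THP-1. For U-937 they detected 37 of 100, so changes of that size were often missed in both lines. At an unadjusted p under 0.05, edgeR passed 0 of 8 genes in THP-1 (background 6.84% higher and 6.22% lower) and 2 of 8, SIRT5 and SIRT1, in U-937, both higher (background 8.25% higher and 8.44% lower). These 2 passes rested on single libraries: 0 of 8 passed without DMSO replicate 1 and 0 without honokiol replicate 3 of U-937. The 2 treatments were without overlap for 1 of 8 genes in THP-1, SIRT5, which was higher (background 10.9% higher and 9.32% lower). In U-937 they were without overlap for 2 of 8, again SIRT5 and SIRT1, both higher (background 11.4% higher and 12.5% lower). For SIRT1 this depended on the scaling. With CPM scaled over the 12 libraries, U-937 DMSO replicate 2 was at 29.99 and U-937 honokiol replicate 1 at 29.91. For the 8 genes the median log2 fold change was -0.04 with THP-1 and 0.21 with U-937 cells, beside medians over all tested genes of -0.0011 and 0.02. THP-1 cells gave 3 positive values among the 8 genes and U-937 cells gave 6.

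The second comparison asks whether the response to honokiol differed between the lines, given as the U-937 response minus the THP-1 response. The test of this difference, in one edgeR fit of the 12 libraries, called 0 of 8 genes, beside 0.111% of all tested genes. No gene passed at an unadjusted p under 0.05 either (background 4.82% higher and 4.54% lower), and DESeq2 and limma-trend called none. The difference was 0.48 on the log2 scale for SIRT3 (95% interval -0.37 to 1.33, edgeR adjusted p = 0.760). It was 0.66 for SIRT1 (-0.09 to 1.41, edgeR adjusted p = 0.579), and 0.23 for SIRT5 (-0.47 to 0.94, edgeR adjusted p = 0.899). The difference for SIRT1 was 0.31 without the 2 DMSO libraries of high mitochondrial share. For SOD2 it was -0.42 (-1.77 to 0.92), and it was 0.08 without the same 2 libraries. The intervals of SIRT1, SIRT3 and SOD2 are wide enough to leave differences of more than 2 times undetected. With simulated counts, the test of this difference detected 2 of 100 genes with an absolute log2 change of 1. The absence of a call here therefore says little about differences of that size.

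The third comparison was that of the lines themselves with DMSO, and here 3 of the 8 genes differed. SIRT2, SIRT6 and SOD2 were higher in U-937 than in THP-1 cells. SIRT2 was at 5.10, 5.19 and 5.48 FPKM in THP-1 and at 13.36, 11.82 and 11.09 FPKM in U-937, a fold of 2.22 (95% interval 1.71 to 2.89, edgeR adjusted p = 0.000616). SIRT6 was at 6.15, 6.46 and 7.60 FPKM in THP-1 and at 11.95, 12.28 and 11.95 FPKM in U-937, a fold of 1.73 (1.32 to 2.25, edgeR adjusted p = 0.00505). SOD2 had a fold of 3.78 (2.17 to 6.60, edgeR adjusted p = 0.00227), and its lowest U-937 library, at 2.10 FPKM, lay above its highest THP-1 library, at 0.89 FPKM.

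SIRT3 was 1.54 times as high in U-937 as in THP-1 cells with DMSO (95% interval 0.940 to 2.53), which did not pass the threshold (edgeR adjusted p = 0.134). The highest THP-1 library, at 1.24 FPKM, overlapped the lowest U-937 library, at 1.14 FPKM. The folds of the other 4 genes were 1.11 for SIRT1 (0.695 to 1.76), 0.930 for SIRT5 (0.595 to 1.45), 0.962 for SIRT7 (0.660 to 1.40) and 0.882 for IDH2 (0.659 to 1.18). Their libraries overlapped between the lines, and their adjusted p lay between 0.452 and 0.866 by edgeR.

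A share of 3 in 8 was not above the background of this comparison, since 47.3% of all tested genes had an adjusted p under 0.05. The same 3 genes passed at an unadjusted p under 0.05, all higher in U-937 (background 25.4% higher and 28.6% lower), and the same 3 had libraries without overlap (background 28.4% higher and 29.8% lower). The median log2 fold change of the 8 genes was 0.39, beside -0.04 over all tested genes. SIRT2, SIRT6 and SOD2 kept an adjusted p under 0.05 in U-937 over THP-1 with each of the 17 alternatives tried, with adjusted p of at most 0.0403 (SIRT6 without THP-1 DMSO replicate 2). The log2 fold change over these alternatives ran from 1.01 to 1.28 for SIRT2, from 0.66 to 0.87 for SIRT6 and from 1.36 to 2.18 for SOD2.

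Genes beside these loci were read with them. NFKBIB, which encodes an inhibitor of NF-kappaB and starts within the first part of SIRT2 on the other strand (163 shared bases in the deposited coordinates), was at 5.48, 5.46 and 5.18 FPKM in THP-1 and at 15.70, 14.39 and 12.56 FPKM in U-937 cells with DMSO. Its fold between the lines, 2.55 (1.87 to 3.48, edgeR adjusted p = 0.000648), was near that of SIRT2. With honokiol in U-937 it was at 9.49, 12.39 and 11.39 FPKM, below each DMSO library, with a log2 fold change of -0.45 (edgeR adjusted p = 0.255), while SIRT2 had 0.14. PSMD13, a subunit of the proteasome lid that starts 107 bases from SIRT3 on the other strand in the deposited coordinates, was at 10.00, 13.38 and 11.94 FPKM in THP-1 and at 17.51, 19.22 and 17.66 FPKM in U-937 cells with DMSO. Its fold was 1.49 (1.17 to 1.90, edgeR adjusted p = 0.0145), close in size to the 1.54 of SIRT3, which did not pass. With honokiol the log2 fold change of PSMD13 was 0.05 for THP-1 and -0.09 for U-937.

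WTAP, a subunit of the RNA m6A methyltransferase complex, shares 1769 bases with SOD2 on the other strand. Its fold between the lines was 0.924 (0.710 to 1.20, edgeR adjusted p = 0.602), unlike that of SOD2, and its libraries lay between 7.91 and 11.08 FPKM. RIC8A, a chaperone of G proteins, shares 84 bases with SIRT3 and had a log2 fold change of 0.31 between the lines (edgeR adjusted p = 0.116). ANKRD24, which starts 788 bases from SIRT6, had 26 to 386 counts per library and was not tested between the lines with DMSO. The other overlapping or adjacent genes, IDH2-DT, AL441883, RNU6-1088P, HNRNPH1P1 and RNU4ATAC18P, had at most 32 counts in a library. Without strand, reads of the shared bases cannot be assigned to one gene of a pair.

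Over the 12 libraries, the genes whose log2 CPM followed each SIRT3-linked gene most closely were found among the 9598 genes with a symbol and a mean of at least 1 FPKM in each group (9597 for IDH2). For SIRT3 these were TMEM143, with a Pearson r of 0.96, MAP10 (0.93) and USP11 (0.92). TMEM143 encodes a mitochondrial membrane protein, and it was at 2.21, 2.05 and 3.38 FPKM in the U-937 DMSO libraries and at 3.33, 2.56 and 2.78 FPKM in the U-937 honokiol libraries. It was highest in the same library of each group as SIRT3. Since it was picked by its r over these libraries, this is not a separate observation. With the group means removed, r was 0.95 for TMEM143, 0.80 for MAP10 and 0.70 for USP11.

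For SOD2 the closest genes were PXN (r = 0.97), FAM219A (0.93) and SULT1A1 (0.93). PXN encodes paxillin, an adaptor of focal adhesions, and in U-937 cells it was at 8.70, 6.37 and 6.31 FPKM with DMSO and at 6.01, 8.29 and 5.07 FPKM with honokiol. PXN was picked by its r with SOD2 over these libraries, and the 2 libraries with high SOD2 were also the 2 with high PXN. They were high in genes that respond to NF-kappaB as well. IL1B in U-937 was at 59.7, 4.62 and 3.93 CPM with DMSO and at 6.21, 50.5 and 6.90 CPM with honokiol. TNFAIP3 was at 77.7, 12.3 and 13.3 CPM and at 15.3, 70.2 and 22.0 CPM. BCL2A1 did not follow, at 77.4, 89.8 and 48.9 CPM and at 49.1, 73.0 and 94.2 CPM. The cause was not tested. For IDH2 the closest genes were MELTF-AS1 (0.82), RPS10-NUDT3 (0.81) and C6orf89 (0.80). RPS10-NUDT3 is a read-through of 2 genes and shares reads with both. Among the 9 genes themselves the highest correlation was that of SIRT2 and SIRT6 (r = 0.97, and 0.50 with the group means removed). These correlations are descriptions over 12 libraries that share lines and treatments, and those between genes with few counts also carry counting error.

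**Figure D3:**
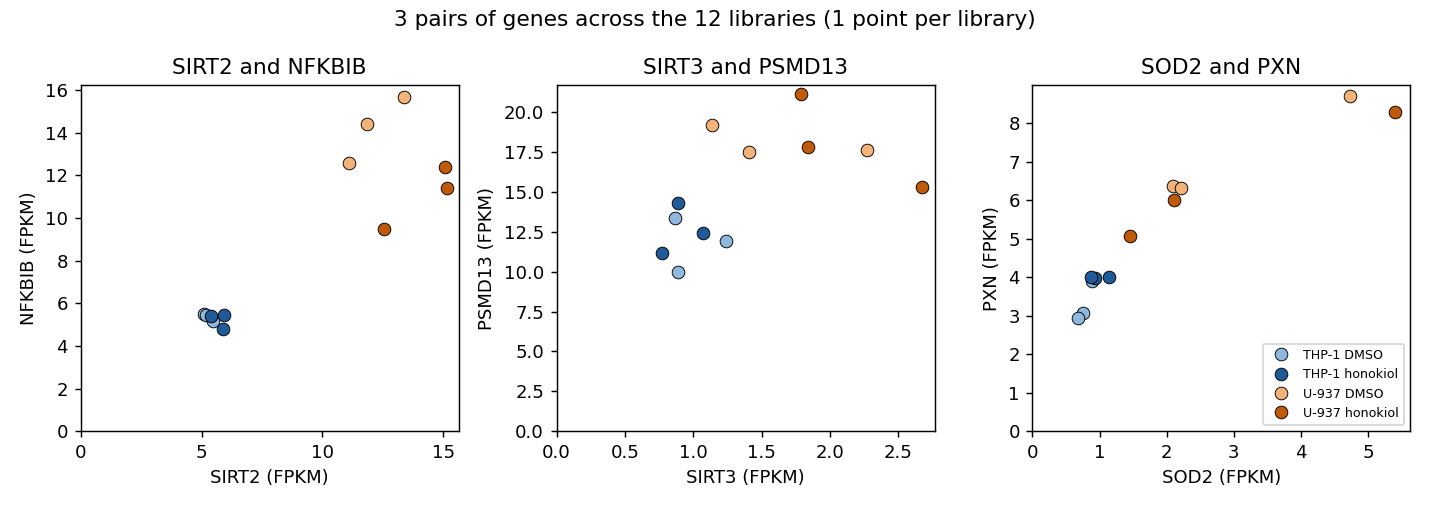
FPKM of SIRT2 and NFKBIB, SIRT3 and PSMD13, and SOD2 and PXN in the 12 libraries, 1 point per library, coloured by group, linear axes from 0. SIRT2 and NFKBIB separate the lines, SIRT3 and PSMD13 do not follow each other within U-937, and the 2 U-937 libraries with SOD2 at 4.73 and 5.40 FPKM have the highest PXN.

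The genes around the sirtuins in metabolism and regulation were read from 8 lists with 158 genes, of which 137 were tested in each line. With honokiol, 0 of these 137 passed an adjusted p under 0.05 by edgeR in THP-1 or in U-937. At an unadjusted p under 0.05, edgeR passed 14 higher and 7 lower in THP-1, beside 6.84% higher and 6.22% lower among all tested genes, and 11 higher and 7 lower in U-937, beside 8.25% and 8.44%. The values below therefore describe genes that did not pass the adjusted threshold.

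NAD+ is the cosubstrate of the sirtuins, and 19 of 28 genes of NAD metabolism were tested in each line. By the unadjusted p, 4 were higher and 0 lower in THP-1 (6.84% and 6.22% of all tested genes) and 3 higher and 0 lower in U-937 (8.25% and 8.44%), and the list medians were 0.11 and 0.25 on the log2 scale. CD38, the main NAD+ glycohydrolase of myeloid cells, was at 9.98, 6.05 and 8.30 FPKM with DMSO and at 14.41, 15.95 and 14.71 FPKM with honokiol in THP-1 cells. In U-937 cells it was at 0.37, 0.34 and 0.19 FPKM with DMSO and at 3.19, 2.51 and 1.34 FPKM with honokiol. All honokiol libraries lay above all DMSO libraries in both lines, with log2 fold changes of 0.82 (edgeR adjusted p = 0.215) for THP-1 and 2.86 (edgeR adjusted p = 0.0598) for U-937. By DESeq2 both had an adjusted p under 0.05. DESeq2 called more genes in all, 505 of 14600 in THP-1 and 790 of 13726 in U-937, where edgeR called 6 and 13. The DESeq2 results of other genes below stand beside the same numbers. The test of the difference between the lines gave 2.03 for CD38 (edgeR adjusted p = 0.186).

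NAMPT, the rate-limiting enzyme of NAD+ salvage, was at 3.53, 2.96 and 3.84 FPKM with DMSO and at 4.51, 5.42 and 5.96 FPKM with honokiol in THP-1 cells, a log2 fold change of 0.56 (edgeR adjusted p = 0.267). NADK, which phosphorylates NAD+ to NADP+, had 0.43 and NAPRT, which uses nicotinic acid, 0.54 in THP-1. In U-937 cells TDO2, the first enzyme of tryptophan breakdown, had 1.43, at 73 to 428 counts, and PARP2, an NAD+ consumer at DNA breaks, had 0.40. NAMPT differed by -0.98 between the responses of the lines (edgeR adjusted p = 0.317).

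Of 24 mitochondrial substrates of SIRT3, 21 were tested for THP-1 and 20 for U-937. By the unadjusted p, 3 were higher and 2 lower in THP-1 (6.84% and 6.22% of all tested genes). In U-937 1 was higher and 2 were lower (8.25% and 8.44%). The list medians were 0.07 for THP-1 and -0.01 for U-937. SHMT2, the mitochondrial serine hydroxymethyltransferase, had log2 fold changes of 0.74 with THP-1 and 0.45 with U-937. PPIF, or cyclophilin D, a regulator of the permeability transition pore, had -0.41 and -0.38. In THP-1 ACSS1, an acetyl-CoA synthetase, had 0.57 and ACAT1, an acetoacetyl-CoA thiolase, 0.61. In U-937 the aspartate aminotransferase GOT2 had -0.41. The adjusted p of these genes lay between 0.162 and 0.339 by edgeR.

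Of the 23 antioxidant enzymes on the list, 2 of 22 tested were higher and 0 lower by the unadjusted p in THP-1, and 4 of 21 were higher and 0 lower in U-937. Among all tested genes the shares were 6.84% higher and 6.22% lower in THP-1 and 8.25% and 8.44% in U-937. SESN2, a stress-induced sestrin, was at 3.95, 4.92 and 4.88 FPKM with DMSO and at 4.72, 7.23 and 9.83 FPKM with honokiol in THP-1 cells. In U-937 cells it was at 6.65, 4.92 and 9.31 FPKM with DMSO and at 19.92, 17.90 and 16.83 FPKM with honokiol, without overlap. Its log2 fold change was 0.61 in THP-1 (edgeR adjusted p = 0.364) and 1.302 in U-937 (edgeR adjusted p = 0.0711). The others were GPX1 (0.49), a glutathione peroxidase, in THP-1, and GLRX (0.75), PRDX5 (0.35) and catalase (CAT, 0.51) in U-937. The list medians were 0.03 and -0.05.

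IDH2 belongs with the isocitrate dehydrogenases and the citrate cycle, a list of 23 genes. IDH1, the cytosolic counterpart of IDH2, was at 22.78, 28.29 and 23.24 FPKM with DMSO and at 31.67, 32.92 and 32.09 FPKM with honokiol in THP-1 cells. In U-937 cells it was at 20.70, 30.49 and 38.49 FPKM with DMSO and at 56.15, 56.42 and 53.64 FPKM with honokiol. Again no DMSO library reached a honokiol library in either line, with log2 fold changes of 0.33 (edgeR adjusted p = 0.338) for THP-1 and 0.81 (edgeR adjusted p = 0.125) for U-937. By DESeq2 the adjusted p of IDH1 was under 0.05 in U-937. By the unadjusted p, 3 of 23 tested genes were higher and 0 lower in THP-1 (6.84% and 6.22% of all tested genes). In U-937 1 of 22 was higher and 0 were lower (8.25% and 8.44%). The malic enzymes ME3 (0.80) and ME1 (0.47) were the other genes with an unadjusted p under 0.05, both in THP-1. The list medians were 0.06 and -0.03 for the lines in this order.

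Among 20 regulators of sirtuins and transcription factors that sirtuins deacetylate, FOXO1, a forkhead factor, had in THP-1 a log2 fold change of 1.27 (edgeR adjusted p = 0.163), from 1.11 ± 0.171 to 2.80 ± 0.784 FPKM (SD, n = 3). In THP-1 the ubiquitin hydrolase USP22 had -0.31 and the acetyltransferase EP300 -0.69. In U-937 ELAVL1, an RNA-binding protein that stabilises SIRT1 mRNA, had -0.44, the SIRT1 inhibitor CCAR2 -0.35 and the acetyltransferase KAT2B 0.54. By the unadjusted p, 1 of 18 tested regulators was higher and 2 were lower in THP-1 (6.84% and 6.22% of all tested genes). In U-937 1 of 19 was higher and 2 were lower (8.25% and 8.44%). Of the 14 genes of mitochondrial biogenesis, 0 passed the unadjusted p in THP-1 (6.84% higher and 6.22% lower among all tested genes). In U-937 3 were lower (8.44% of all tested genes): the mitochondrial RNA polymerase POLRMT (-0.56) and the coactivators PPRC1 (-0.59) and PPARGC1B (-0.47). By DESeq2 the adjusted p of POLRMT and PPRC1 in U-937 was under 0.05. The difference between the lines was -0.88 for POLRMT (edgeR adjusted p = 0.194) and -0.90 for PPARGC1B (edgeR adjusted p = 0.312).

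Of 11 zinc-dependent histone deacetylases, the other class of lysine deacetylases, 9 were tested in each line. HDAC4 in THP-1 had a log2 fold change of -0.50, and HDAC6 in U-937, a tubulin deacetylase like SIRT2, had 0.34. By the unadjusted p, 0 of the 9 were higher and 1 was lower in THP-1 (6.84% and 6.22% of all tested genes). In U-937 1 was higher and 0 were lower (8.25% and 8.44%). Of 19 genes that respond to NF-kappaB, a group that includes SOD2 in many cells, 15 were tested for THP-1 and 17 for U-937. TNF had -1.84 in THP-1 (19.4 ± 6.92 FPKM with DMSO and 5.72 ± 1.85 FPKM with honokiol, SD, n = 3, edgeR adjusted p = 0.136), BCL2A1 1.11 and NFKB1 -0.52. By the unadjusted p, 1 of the 15 was higher and 2 were lower in THP-1 (6.84% and 6.22% of all tested genes). In U-937 no gene of the list passed the unadjusted p (8.25% higher and 8.44% lower among all tested genes). Single libraries stood out there. CXCL8 in U-937 was at 165, 53.1 and 47.3 CPM with DMSO and at 13.7, 133 and 11.8 CPM with honokiol. With such spread the test could miss a response. By DESeq2 TNF and FOXO1 had an adjusted p under 0.05 in THP-1.

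**Figure D4:**
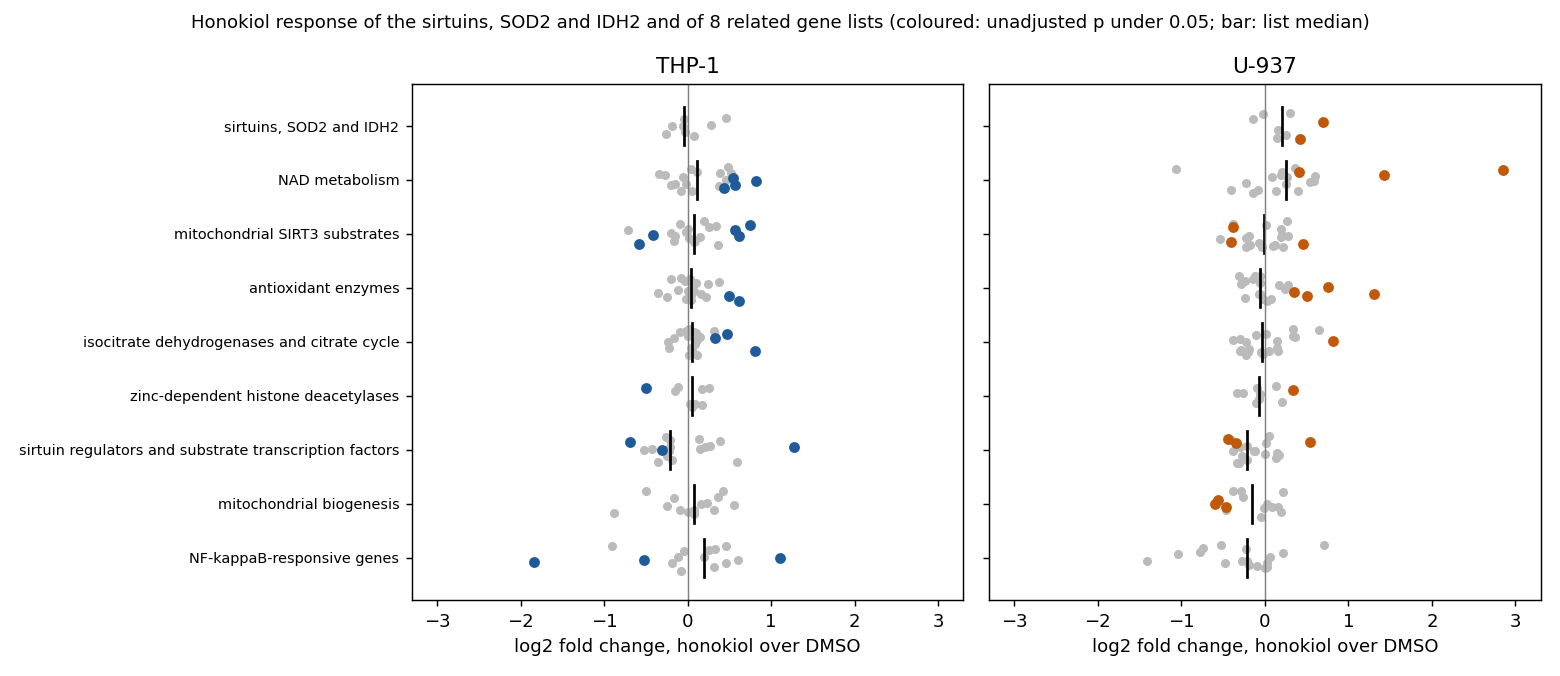
Log2 fold changes (x axis, honokiol over DMSO) of the sirtuins, SOD2 and IDH2 and of 8 related gene lists in THP-1 and U-937, with 1 point per tested gene, coloured where the unadjusted p is under 0.05, and a bar at the list median. The points of SIRT5 and SIRT1 are the 2 coloured ones of the top row in U-937, and CD38 is the point at 2.86.

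Between the lines with DMSO, 67 of 142 tested genes of these lists had an adjusted p under 0.05, where 47.3% of all genes did. Of all 14617 genes tested, 3212 were higher and 3708 lower in U-937 at this threshold. In NAD metabolism 3 were higher and 8 lower in U-937, and the 4 of smallest p were all lower: CD38 (log2 fold change -4.80), its relative BST1 (-2.44), QPRT (-2.35), which makes nicotinate mononucleotide, and AFMID (-2.37) of the kynurenine pathway. Of the SIRT3 substrates 7 were higher, among them PDHA1 (1.63), GOT2 (1.11) and ACSS1 (1.21), and 1 was lower, ALDH2 (-7.32), at 44 to 52 counts in U-937 against 4904 to 9949 in THP-1. Of the antioxidant enzymes 6 were higher, among them PRDX4 (1.68) and GSR (1.22), and 7 lower, among them SESN3 (-3.16) and PRDX2 (-1.27). All these genes had an adjusted p under 0.05 by edgeR, and the share over the lists was near the background.

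Other isocitrate dehydrogenase subunits were higher in U-937, IDH3A by 1.63 and IDH3B by 0.85 on the log2 scale, as was ACO1 (1.49), whereas IDH2 was not called. The malic enzyme ME1 was at 1232 to 1446 counts in THP-1 and at 0 to 17 counts in U-937. HDAC4 was at 8722 to 10630 counts in THP-1 and at 4 to 15 in U-937, HDAC5 (-1.20) and HDAC2 (-0.78) were lower in U-937 and HDAC6 (1.51) was higher. Among the regulators CCAR2 (1.20), FOXO4 (2.81) and KAT8 (0.78) were higher and FOXO3 (-0.86) lower. The mitochondrial biogenesis genes POLG (1.14), POLRMT (0.94), TFB2M (0.95) and PPRC1 (1.17) were higher and none of the 14 was lower. By edgeR the adjusted p of TFB2M was 0.0544 without THP-1 DMSO replicate 3 and that of PPRC1 0.0645 without THP-1 DMSO replicate 2. Of the NF-kappaB-responsive genes, 7 of 17 were higher and 2 lower in U-937, and the list median was -0.04. The 4 of smallest p, BCL2A1 (4.60), CCL2 (5.29), CXCL8 (4.57) and IER3 (4.19), were higher. In the other direction, TNFAIP3 was at 168, 132 and 143 CPM in THP-1 and at 77.7, 12.3 and 13.3 CPM in U-937 with DMSO. Without both DMSO replicates 1, IER3 had 2.55 with an adjusted p of 0.0503 by edgeR. Of the monocytic and myeloid markers 2 were higher and 12 lower in U-937 cells, and the part of this difference in the results above was not tested. The counts of higher and lower genes in these lists stand beside 3212 higher and 3708 lower among all 14617 genes tested.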

How the data were processed

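The 12 libraries hold poly(A) mRNA. The authors deposited FPKM values (2 decimals) and estimated counts per gene, both used as they stand. The labels list Bowtie 0.12.2, HISAT2 2.0 and StringTie 1.3.0 and a mouse build, without roles, while the coordinates of 35724 of 36866 genes overlapped their human GRCh38 locus in GENCODE 29. Values of 4 and its multiples were in excess among the counts, so these are estimates, and counting intervals were not computed. The labels and the methods name different instruments and RNA amounts.

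Counts were normalised by TMM and tested by edgeR 4.0.16 (R 4.3.3, quasi-likelihood), with genes of at least 0.5 FPKM in at least 3 libraries of each fit, 14600 in THP-1, 13726 in U-937, 16283 for the difference and 14617 between the lines. No term for the replicate was used. DESeq2 1.42.0 and limma 3.58.1, among other alternatives, were compared. Groups without overlap were read from CPM scaled by TMM over the libraries of each comparison. The test was checked on simulated counts.

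All 9 genes were named. Of each list and comparison, the genes named are up to 4 of smallest p with an adjusted p under 0.05 or, failing that, an unadjusted p under 0.05, beside neighbours within 1000 bases and the 3 genes most correlated with SIRT3, SOD2 and IDH2. The genes and lists were chosen with earlier results of these data known, so their results are not independent of those. No adjustment over a list alone was made. A second gene identifier named SOD2 in GENCODE 29 was not analysed here.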

Additional observations from a re-analysis of the deposited data

How the results depend on the processing

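The calls of SIRT2, SIRT6 and SOD2 between the lines, and the absence of a call among these genes for honokiol and for the difference between the lines, held under every alternative run. Of 566 alternative log2 fold changes of the 8 genes, 525 kept their direction and side of the threshold and 41 changed sign. On the limma-trend scale of log2(FPKM + 0.5) and log2(FPKM + 0.1), THP-1 gave 0.028 and 0.030 for SIRT6, 0.035 and 0.042 for SIRT7 and 0.0018 and 0.0018 for IDH2, U-937 gave 0.064 and 0.066 for SIRT6, the difference between the lines 0.037 and 0.037 for SIRT6, and U-937 over THP-1 0.025 and 0.031 for SIRT7. FPKM was not rescaled by TMM there. On the 2 scales the medians over all tested genes were 0.053 and 0.062 in THP-1 and 0.094 and 0.108 in U-937. They were 0.029 and 0.035 for the difference and 0.016 and 0.020 for U-937 over THP-1. Without both DMSO replicates 1, an alternative chosen after seeing the data, the difference between the lines was 0.041 for SIRT6 and 0.075 for SOD2.

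With single libraries left out, signs changed within these ranges: in THP-1 -0.50 to 0.043 for SIRT1, -0.078 to 0.037 for SIRT6, -0.26 to 0.10 for SIRT7 and -0.12 to 0.027 for IDH2; in U-937 -0.091 to 0.050 for SIRT6 and -0.86 to 0.39 for SOD2; in the difference -0.029 to 0.18 for SIRT2, -0.077 to 0.066 for SIRT6 and -1.16 to 0.11 for SOD2; between the lines -0.16 to 0.38 for SIRT1, -0.31 to 0.051 for SIRT5, -0.34 to 0.069 for SIRT7 and -0.32 to 0.012 for IDH2. The cause was not tested.

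The number of these genes with an unadjusted p under 0.05 was 1 by DESeq2 in THP-1, and in U-937 it was 1 with no FPKM filter and 1 in one fit of the 12 libraries. With single libraries left out it ran from 0 to 1 in THP-1 (1 without DMSO replicate 2 or 3), from 0 to 1 in U-937 (0 without DMSO replicate 1 or honokiol replicate 3) and from 0 to 1 in the difference. SIRT3 and SOD2 in THP-1 were not tested at a minimum of 1 FPKM.

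The deviations of same-numbered libraries had r of -0.19 to 0.11 between treatments in THP-1 and -0.13 to -0.11 in U-937 and of 0.02 to 0.13 between the DMSO libraries of the lines, so the numbers were not taken as pairs. With the replicate block, 1 of these genes passed the unadjusted p in U-937, and over all genes 0 were called for honokiol in THP-1, in U-937 and in the difference, in place of 6, 13 and 18. DESeq2 called 505, 790 and 248 genes, one fit of the 12 libraries 37 in THP-1 and 207 in U-937, and limma-trend 0 in THP-1. The depth and spread limit what could be detected, as the intervals show. The order of SIRT6, SIRT7 and SOD2 by level depended on the length used.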
